A study of Mus musculus with 45 samples.

Results

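Cadherins are calcium-dependent adhesion molecules that join cells through like extracellular domains, and the 69 genes described here are those of the table whose symbols begin with Cdh and a number or with Pcdh, out of 11220 genes listed. They were taken by name alone and comprise 20 Cdh genes, 11 protocadherin genes outside the clusters, and 7 Pcdha, 18 Pcdhb and 13 Pcdhg genes. Classical type I and type II cadherins bind catenins through their cytoplasmic tails and anchor the actin of adherens junctions. Cells of an early epithelium carry mainly E-cadherin, the neural plate switches to N-cadherin as it closes, and combinations of type II cadherins and protocadherins mark subdivisions of the neural tube. Protocadherins lack the catenin-binding tail, and the clustered ones give single neurons different surface identities.

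Bulk RNA was measured in 15 groups of 3 cultures, 45 in all, taken while mouse embryonic stem cells (mESCs) were turned toward spinal dorsal interneurons. D0 was the undifferentiated stage and D3 the neuromesodermal progenitor stage reached with bFGF and CHIR, a WNT activator. From day 3 the M groups received 100 nM retinoic acid (RA) and 10 ng/ml BMP4 together, for 24 h in M4 and for 48 h in M5, M7 and M9. The B groups received RA for 24 h and then RA with BMP4, for 6 h in B6hr and for 24 h in B5, B7 and B9. The R groups received 100 nM RA alone, for 24 h in R4, 30 h in R6hr and 48 h in R5, R7 and R9. The digit in a name is the day of sampling, and 6hr is 6 h into the second 24 h. All treated groups share the bFGF and CHIR step and RA, and M differs from B in both the start and the duration of BMP4. The labels name the cells as mESCs without a line and do not say whether libraries with 1 replicate number share a differentiation, so p-values measure the spread between these libraries, which may be partly technical. The study's title states its aim as stepwise differentiation of spinal sensory interneurons, and the M and B arms test how BMP4 timing bears on it.

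Values are the authors' deposited normalized levels, which carry no unit, are not read counts and are not per length. Levels are therefore compared between groups, and a difference of level between genes is not read as one of abundance. Cut-offs on level and sums over gene lists use the values as they stand, so genes of high level weigh most in a sum. Changes are log2 fold changes of level + 1 from a limma-trend fit of all libraries, with the standard error (SE) and a Benjamini-Hochberg adjusted p over all 11220 genes, called under 0.05. The sum of all levels ran from 12245725 to 15868724 among the libraries, and their read depth is unknown. The table holds no gene that failed the authors' own rate of 0.1 in all 12 deposited comparisons, so calls are more frequent here than in the transcriptome. Several libraries stood apart from their group on summed marker genes. D0 replicates 1 and 2 had summed levels of 13218 and 12220 for 5 pluripotency genes, against 71933 in replicate 3. For 7 mesenchyme genes the same libraries had 17572 and 18313, against 4774 in replicate 3, and for 5 neuron genes 13532 and 17421, against 10245. Which D0 libraries were typical of undifferentiated cells was not tested, and every change of D3 against D0 rests on all of them. D3 replicate 1 had 2362 for 5 neuron genes, against 15616 and 15690 in the other D3 libraries, and R7 replicate 3 had 3568, against 13553 and 16236. R9 replicate 3 had 2321 for 7 mesenchyme genes, against 6515 and 5385 in R9 replicates 1 and 2.

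Of the members, 53 had a highest group mean of at least 50 and 10 of at least 1000 (Cdh1, Cdh2, Cdh3, Cdh6, Pcdh1, Pcdh7, Pcdh8, Pcdh18, Pcdh19 and Pcdhgc3). The highest mean fell in D3 for 13 members, in M7 for 13, in R5 for 12 and in B9 for 9. All 69 passed the filter on low levels, which removed 0 genes. Cdh11, the cadherin best known for mesenchyme, was not analysed here, so a neural to mesenchymal change of cadherin type was followed through the other members.

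Promoters are shown for Cdh6 and Pcdh8, which were lower in M than in R on days 4, 5 and 7, and for Pcdh7 and Pcdh18, which were higher in M on days 7 and 9. Each runs from 250 bases before the RefSeq start to 50 bases from it, 5′ to 3′ on the gene's strand, from RefSeq on GRCm38.p6. The positions are chr15:13173626-13173925 (minus strand) for Cdh6, chr14:79771263-79771562 (minus) for Pcdh8, chr5:57717831-57718130 (plus) for Pcdh7 and chr3:49757267-49757566 (minus) for Pcdh18. Capitals mark matches to 3 motifs searched on both strands with no overlap among the matches, CAGGTG (an E-box that Snail and Zeb factors can bind), GGCGCC (a GC-rich element that SMADs can bind) and AGGTCA (a half-site of nuclear receptors).
Cdh6: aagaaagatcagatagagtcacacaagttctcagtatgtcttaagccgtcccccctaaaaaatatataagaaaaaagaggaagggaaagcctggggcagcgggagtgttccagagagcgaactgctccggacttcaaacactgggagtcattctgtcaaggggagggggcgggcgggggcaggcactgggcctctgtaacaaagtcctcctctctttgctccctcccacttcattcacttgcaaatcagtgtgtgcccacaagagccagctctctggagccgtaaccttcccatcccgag
Pcdh8: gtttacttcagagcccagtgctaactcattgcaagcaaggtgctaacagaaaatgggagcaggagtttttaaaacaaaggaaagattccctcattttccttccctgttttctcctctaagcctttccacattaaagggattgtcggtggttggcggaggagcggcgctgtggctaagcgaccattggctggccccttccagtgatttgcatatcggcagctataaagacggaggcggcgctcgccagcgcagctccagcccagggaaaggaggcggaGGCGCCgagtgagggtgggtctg
Pcdh7: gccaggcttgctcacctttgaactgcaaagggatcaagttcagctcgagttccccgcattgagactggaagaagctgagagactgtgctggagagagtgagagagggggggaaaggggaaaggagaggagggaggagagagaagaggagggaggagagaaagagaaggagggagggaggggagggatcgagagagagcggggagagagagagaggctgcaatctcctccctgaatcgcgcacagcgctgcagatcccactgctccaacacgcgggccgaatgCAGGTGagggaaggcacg
Pcdh18: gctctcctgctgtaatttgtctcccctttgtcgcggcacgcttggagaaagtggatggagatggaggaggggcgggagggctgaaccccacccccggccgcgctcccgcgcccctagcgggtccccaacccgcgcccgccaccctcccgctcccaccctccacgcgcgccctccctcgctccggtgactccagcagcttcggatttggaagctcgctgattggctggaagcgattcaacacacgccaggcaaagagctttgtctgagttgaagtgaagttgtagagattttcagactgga
Pcdh7 held 1 CAGGTG, its first letter at base 33 from the start, and Pcdh8 held 1 GGCGCC at base 28. Cdh6 and Pcdh18 held no match to any of the 3 motifs. Among 32851 mouse promoters of the same length, 20.2% held CAGGTG, 11.9% held GGCGCC and 16.3% held AGGTCA. A promoter was in the table for 21 members.

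Between D3 and D0, 34 of 69 members were called, beside 54.9% of all genes, 31 higher (30.9% of all genes) and 3 lower (24%). Between R4 and D3, 13 were called (24.3% of all genes), 3 higher (11.7%) and 10 lower (12.6%), and under quantile normalization 6 higher and 10 lower. Between M4 and R4, 10 were called (14.1% of all genes), 2 higher (6.76%) and 8 lower (7.37%). In either direction together, members were called about as often as, or less often than, the listed genes in general. The direction was uneven in these steps, with a median member change of 0.92 for D3 over D0, -0.32 for R4 over D3 and -0.47 for M4 over R4, against 0.07, -0.01 and -0.02 over all genes. Leaving out D3 replicate 3 or R4 replicate 2 took the R4 count to 8, and leaving out M4 replicate 2 took the M4 count to 5. Without D0 replicate 3 the D3 count was 25, and without D3 replicate 1 it was 35. Quantile normalization moved the all-gene median of D3 over D0 by -0.12, and every member change named for it was larger than that shift.

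For M5 against R5, 19 members were called (44.3% of all genes), 8 higher (21%) and 11 lower (23.3%). For B5 against R5, 4 were called (5.99%), 0 higher (2.76%) and 4 lower (3.23%). Both share the R5 libraries. Under quantile normalization B5 had 1 higher and 5 lower, and leaving out R5 replicate 3, B5 replicate 1 or B5 replicate 2 left 1 called member. For M5 against B5, 9 were called (17.8%), 2 higher (8.57%) and 7 lower (9.23%), and 5 without M5 replicate 2. On day 7 the count for M7 against R7 was 21 (43.5% of all genes), 10 higher (22.9%) and 11 lower (20.6%). For B7 against R7 it was 16 (23.7%), 8 higher (12.1%) and 8 lower (11.6%), and 10 without B7 replicate 1. For M7 against B7 it was 26 (41.6%), 13 higher (21.7%) and 13 lower (19.9%). On day 9 the count for M9 against R9 was 21 (51% of all genes), 13 higher (27.5%) and 8 lower (23.5%). For B9 against R9 it was 8 (11.8%), 6 higher (6.12%) and 2 lower (5.71%), and for M9 against B9 it was 26 (51.5%), 15 higher (27.8%) and 11 lower (23.7%). Leaving out R9 replicate 3 left 3 members for B9 against R9, and R9 replicate 2, B9 replicate 1 or B9 replicate 2 left 4. For M9 against B9, the count was 16 without B9 replicate 2 or 3 and 14 without M9 replicate 2. In each of these comparisons the members' share of calls was at or below that of all listed genes.

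For 6 h of BMP4, B6hr against R6hr, 0 members were called by limma in the fit of all libraries (0.0178% of all genes), with 7 at an unadjusted p under 0.05. No member passed 0.05 in the authors' deposited table (0.107% of all genes). Replicate numbers were taken to pair these libraries, which the labels do not state. Deviations of same-numbered libraries from their group means correlated at 0.586, 0.189 and 0.465, and those of different numbers at 0.146 at most. The fit of these libraries alone with the number as a block was added after seeing the data. With the compared libraries alone and the number as a block, 13 members were called (25.9% of all genes), 2 higher (10.6%) and 11 lower (15.3%), and without the block 5 (7.55%). In the blocked fit Cdh2, the N-cadherin of neural and mesenchymal cells, changed by -0.89 (SE 0.08, adjusted p = 0.0004) and Pcdh18 by -0.53 (SE 0.08, adjusted p = 0.0019). Cdh2 was at 4988, 4558 and 5030 in B6hr libraries, against 9371, 9675 and 8027 in R6hr libraries, with no overlap. Cdh4 changed by -0.30 (blocked adjusted p = 0.035), Cdh24 by -0.35 (0.015), Cdh20 by -1.21 (0.02) and Pcdh1 by -0.32 (0.022), and Cdh1 by 0.26 (0.043) and Cdh13 by 0.96 (0.011). Among clustered genes the blocked fit called Pcdhgc3, Pcdhgc4, Pcdhgb6, Pcdhga9 and Pcdhb22, all lower in B6hr.

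Over time, 15 members were called for R9 against R5 (39.1% of all genes), 8 higher (17.7%) and 7 lower (21.5%). For B9 against B5 there were 17 (43.7%), 14 higher (20.4%) and 3 lower (23.2%), and for M9 against M5 13 (25.8%), 10 higher (14.4%) and 3 lower (11.4%). Under quantile normalization the split was 5 higher and 15 lower for R9 against R5 and 11 higher and 12 lower for B9 against B5. Leaving out R5 replicate 3 took the R9 count to 8, and leaving out B5 replicate 3 took the B9 count to 11. The change of the M against R effect from day 5 to day 9, tested as the difference of the 2 effects, was called for 14 members (38.9% of all genes). It was more positive on day 9 for 12 (21.9%) and more negative for 2 (17%). Quantile normalization moved the all-gene median of that difference by -0.12.

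**Figure D1:**
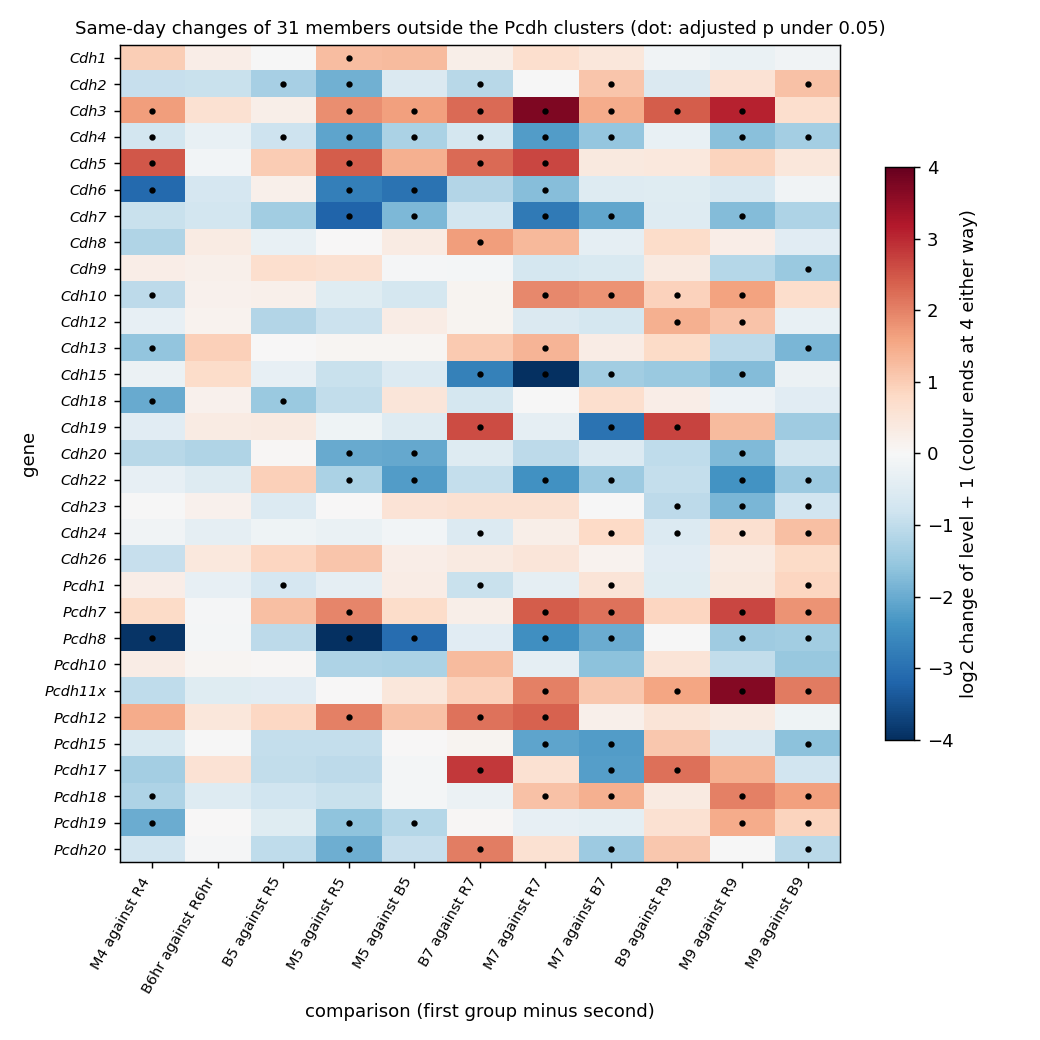
Log2 changes of level + 1 for the 31 members outside the protocadherin clusters (rows) in 11 same-day comparisons (columns, first group minus second); red is higher and blue lower in the first group, the colour ends at 4 either way, and a dot marks an adjusted p under 0.05. Cdh3 and Pcdh7 run red and Cdh4, Cdh7, Cdh22 and Pcdh8 run blue across the M against R columns, and Cdh19 and Pcdh17 are red mainly in the B against R columns of days 7 and 9.

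Among the type I cadherins, Cdh2 rose at the progenitor stage and was lower under BMP4 early, and on day 9 the order of the arms was no longer the same. Cdh2 was at 11084, 7192 and 6566 in D3 libraries, against 1140, 1157 and 543 in D0 libraries, a change of 3.17 (SE 0.35, adjusted p = 3.1e-09). Every D3 library was above every D0 library, and the change was 2.81 without D0 replicate 3 and 2.94 without D3 replicate 1. R4 averaged 7871 ± 1298 and D3 8281 ± 2448, with overlapping libraries. On day 4 Cdh2 was at 5340, 2582 and 5005 in M4 libraries, against 6466, 8122 and 9026 in R4 libraries, a difference of -0.93 that missed the threshold (adjusted p = 0.072). On day 5 it was at 3385, 4986 and 6400 in M5, at 6508, 5020 and 11052 in B5 and at 13115, 17559 and 25283 in R5. Both BMP4 groups were wholly below R5, the group with the highest Cdh2 mean of all 15. The change was -1.92 for M5 (SE 0.35, adjusted p = 4.1e-05) and -1.34 for B5 (SE 0.35, adjusted p = 0.018), and the B5 call was lost without R5 replicate 2 (adjusted p = 0.053), R5 replicate 3 (0.15), B5 replicate 1 (0.069) or B5 replicate 2 (0.16).

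On day 7 Cdh2 was at 5768, 10566 and 10712 in M7, at 3338, 3761 and 5253 in B7 and at 9315, 10383 and 6851 in R7. M7 and R7 overlapped (change -0.01, SE 0.35), and B7 was below both. B7 changed by -1.11 against R7 (SE 0.35, adjusted p = 0.021), with adjusted p of 0.058, 0.072, 0.092 and 0.06 without R7 replicate 1, R7 replicate 2, B7 replicate 1 and B7 replicate 2. M7 against B7 was 1.10 (SE 0.35, adjusted p = 0.012), lost without B7 replicate 1 (0.052), M7 replicate 2 (0.058) or M7 replicate 3 (0.054). On day 9 Cdh2 was at 6851, 10304 and 6904 in M9, at 5727, 2895 and 2614 in B9 and at 6197, 6538 and 3561 in R9. All M9 libraries were above those of B9 and R9, which overlapped. The change was 1.16 for M9 against B9 (SE 0.35, adjusted p = 0.0064), 0.59 for M9 against R9 (adjusted p = 0.16) and -0.58 for B9 against R9 (adjusted p = 0.29). From day 5 to day 9 Cdh2 changed in R by -1.78 (SE 0.35, adjusted p = 0.00019) and in B by -1.02 (SE 0.35, adjusted p = 0.018, and 0.15, 0.075 and 0.1 without B5 replicate 3, B9 replicate 2 and B9 replicate 3), and M9 against M5 was 0.72 (adjusted p = 0.13). The M against R effect differed between day 9 and day 5 by 2.50 (SE 0.49, adjusted p = 0.00021).

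Cdh3, the P-cadherin of placenta and basal epithelium, was the type I cadherin that ran higher in the BMP4 groups. The gene lies on chromosome 8 at 106510891 to 106557297 (GENCODE M21 on mm10, plus strand), 46053 bases before Cdh1 at 106603351 to 106670246. Cdh3 was at 2634, 2043 and 1151 in M4 and at 750, 306 and 826 in R4, with no overlap (change 1.67, SE 0.48, adjusted p = 0.017; 0.13, 0.083 and 0.069 without R4 replicate 2, M4 replicate 1 and M4 replicate 2). On day 5 it was at 3291, 2928 and 2182 in M5, at 1548, 857 and 527 in B5 and at 539, 1151 and 695 in R5. M5 stood above both other groups, by 1.87 against R5 (SE 0.48, adjusted p = 0.0022) and by 1.64 against B5 (SE 0.48, adjusted p = 0.017; 0.14, 0.072 and 0.06 without B5 replicate 3, M5 replicate 1 and M5 replicate 2). B5 and R5 overlapped, with a difference of 0.23 (adjusted p = 0.84) that turned to -0.17 without B5 replicate 1 and to -0.01 without R5 replicate 1.

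On day 7 Cdh3 reached its highest level, 7643, 5887 and 5763 in M7, against 3738, 1434 and 2266 in B7 and 640, 595 and 294 in R7. The 3 groups did not overlap and stood in the order M7, B7, R7. The change was 3.72 for M7 against R7 (SE 0.48, adjusted p = 2.1e-07), 2.25 for B7 against R7 (SE 0.48, adjusted p = 0.0015) and 1.47 for M7 against B7 (SE 0.48, adjusted p = 0.015; 0.098 and 0.052 without B7 replicate 2 and M7 replicate 1). On day 9 Cdh3 was at 2209, 3289 and 3226 in M9, at 1750, 1784 and 1881 in B9 and at 495, 304 and 250 in R9. M9 and B9 were both above R9, by 3.09 (SE 0.48, adjusted p = 4.5e-06) and 2.43 (SE 0.48, adjusted p = 0.0014), and these comparisons share the R9 libraries. Without R9 replicate 3 the changes were 2.88 and 2.22, and without R7 replicate 3 those of day 7 were 3.37 and 1.90. M9 against B9 was 0.67 (adjusted p = 0.25). Cdh3 in D3 was at 1034 in replicate 1 and at 5441 and 5815 in the other libraries, against 1284, 1408 and 1204 in D0. D3 against D0 was 1.30 (SE 0.48, adjusted p = 0.023), 2.12 without D3 replicate 1, and lost without D3 replicate 2 (adjusted p = 0.15), D3 replicate 3 (0.17) or D0 replicate 3 (0.057). R4 was lower than D3 by -2.47 (SE 0.48, adjusted p = 0.00024), and by -3.29 without D3 replicate 1. The 6 h groups were the lowest, at 320 ± 121 in B6hr and 204 ± 48.9 in R6hr, and R9 followed at 350 ± 129 (SD, n = 3 each).

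Cdh1, the E-cadherin of epithelia and of embryonic stem cells, varied much between libraries and differed between arms in few comparisons. It was at 4813, 4064 and 4049 in D3, against 2100, 1678 and 7843 in D0, where replicate 3 stood apart. D3 against D0 was 0.51 (adjusted p = 0.37) and 1.19 without D0 replicate 3 (adjusted p = 0.027). R4 was lower than D3, at 1917, 1865 and 877, by -1.55 (SE 0.46, adjusted p = 0.013; 0.09 without R4 replicate 3). M4 was at 2312, 4091 and 2474, above every R4 library, but the change of 0.97 missed the threshold (adjusted p = 0.18). On day 5 Cdh1 was at 2758, 1974 and 1302 in M5, at 714, 1224 and 598 in B5 and at 1589, 704 and 497 in R5. M5 overlapped R5, with a change of 1.22 (SE 0.46, adjusted p = 0.031) that was lost without R5 replicate 2 (0.091), R5 replicate 3 (0.19), M5 replicate 1 (0.15) or M5 replicate 2 (0.072). The day 7 means were 1919 ± 856 in M7, 1407 ± 515 in B7 and 1267 ± 785 in R7, and those of day 9 were 1903 ± 201 in M9, 2145 ± 624 in B9 and 2375 ± 724 in R9, with overlap among the arms on both days. R9 was above R5 by 1.49 (SE 0.46, adjusted p = 0.011; 0.093 without R5 replicate 3 and 0.066 without R9 replicate 3), and B9 above B5 by 1.37 (SE 0.46, adjusted p = 0.017; 0.088 without B5 replicate 3 and 0.085 without B9 replicate 3). All 5 pluripotency genes were also higher in R9 than in R5, with summed levels of 4163 to 8344 in R9 against 357 to 795 in R5, in B9 than in B5 (3572 to 8400 against 512 to 1465) and in M5 than in R5 (1418 to 3598 against 357 to 795). Of the 5, 4 were called lower in M9 than in R9 and 5 lower in M9 than in B9, with summed levels of 659 to 1354 in M9. In D3, 4 were called lower than in D0. The libraries overlapped in Cdh1 in each of these last 3 comparisons. The part of the pluripotency genes in the Cdh1 results was not tested. B6hr averaged 1627 ± 167 and R6hr 1373 ± 246.

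Cdh4, the R-cadherin first found in retina and known in neural tube, had the narrowest spread of the type I members and was lower in every M group than in its R group. Its SD was a median 12.5% of the mean over the 15 groups, against 30% for Cdh2, 36.2% for Cdh1 and 36.9% for Cdh3. It was at 318, 246 and 320 in M4, against 469, 512 and 474 in R4 (change -0.73, SE 0.18, adjusted p = 0.0046; 0.052 without M4 replicate 2). On day 5 it was at 109, 131 and 190 in M5, at 350, 280 and 395 in B5 and at 512, 617 and 687 in R5. The 3 groups were fully separate, with B5 between the others. M5 was lower than R5 by -2.10 (SE 0.18, adjusted p = 8.9e-11) and than B5 by -1.27 (SE 0.18, adjusted p = 5.2e-06), and B5 lower than R5 by -0.83 (SE 0.18, adjusted p = 0.0042; 0.06 without B5 replicate 2). On day 7 Cdh4 was at 115, 175 and 193 in M7, at 359, 484 and 570 in B7 and at 754, 819 and 692 in R7, again in 3 separate ranges. M7 against R7 was -2.25 (SE 0.18, adjusted p = 1.1e-11), B7 against R7 -0.70 (SE 0.18, adjusted p = 0.0056; 0.064 without B7 replicate 1) and M7 against B7 -1.55 (SE 0.18, adjusted p = 4.1e-08).

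On day 9 Cdh4 was at 309, 239 and 250 in M9, at 746, 620 and 698 in B9 and at 947, 853 and 736 in R9. M9 stayed apart from both, and B9 and R9 now overlapped. M9 against R9 was -1.67 (SE 0.18, adjusted p = 6.3e-09), M9 against B9 -1.37 (SE 0.18, adjusted p = 3.9e-07) and B9 against R9 -0.29 (adjusted p = 0.29). Cdh4 rose from day 5 to day 9 in each arm, by 0.92 in M (SE 0.18, adjusted p = 0.00025), 1.02 in B (SE 0.18, adjusted p = 4.2e-05) and 0.48 in R (SE 0.18, adjusted p = 0.03; 0.14, 0.053, 0.12 and 0.066 without R5 replicate 1, R5 replicate 2, R9 replicate 1 and R9 replicate 2). D3 averaged 474 ± 26.1 and D0 297 ± 17 (change 0.67, SE 0.18, adjusted p = 0.0017), and B6hr averaged 497 ± 25.9 and R6hr 613 ± 28.8. All 5 neural progenitor genes (Sox1, Sox2, Sox3, Pax6 and Nes) were also lower in M than in R on days 4, 5, 7 and 9. Their summed level was 2266 to 4069 in M5 against 21313 to 28249 in R5 and 4872 to 5298 in M9 against 17541 to 19744 in R9, and their part in the result was not tested. In bulk RNA, fewer cells of a type and less RNA per cell cannot be told apart.

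Cdh15, the M-cadherin of muscle satellite cells, separated the arms on day 7. It was at 5.13, 4.15 and 6.14 in M7, at 10.3, 26.6 and 12.4 in B7 and at 83.9, 123 and 105 in R7. The change was -4.09 for M7 (SE 0.51, adjusted p = 1.2e-07) and -2.69 for B7 (SE 0.51, adjusted p = 0.00046), both without overlap with R7. On day 9 it averaged 24.5 ± 11.3 in M9, 28.9 ± 12.9 in B9 and 78.5 ± 15.2 in R9, and M9 was lower than R9 by -1.73 (SE 0.51, adjusted p = 0.0059; 0.052 without M9 replicate 2). R9 was above R5 by 1.89 (SE 0.51, adjusted p = 0.0042). Of 5 paraxial mesoderm and muscle genes (Meox1, Tbx18, Uncx, Myod1 and Myog), 1 was higher and 3 lower in M7 than in R7. Their summed levels were 647 to 949 in M7 and 613 to 1172 in R7. In M9, 2 were higher and 3 lower than in R9. The day 9 sum was higher in M9, at 1184 to 2059 against 433 to 781 in R9, while Cdh15 was lower in M9. The part of these genes in the Cdh15 result was not tested.

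**Figure D2:**
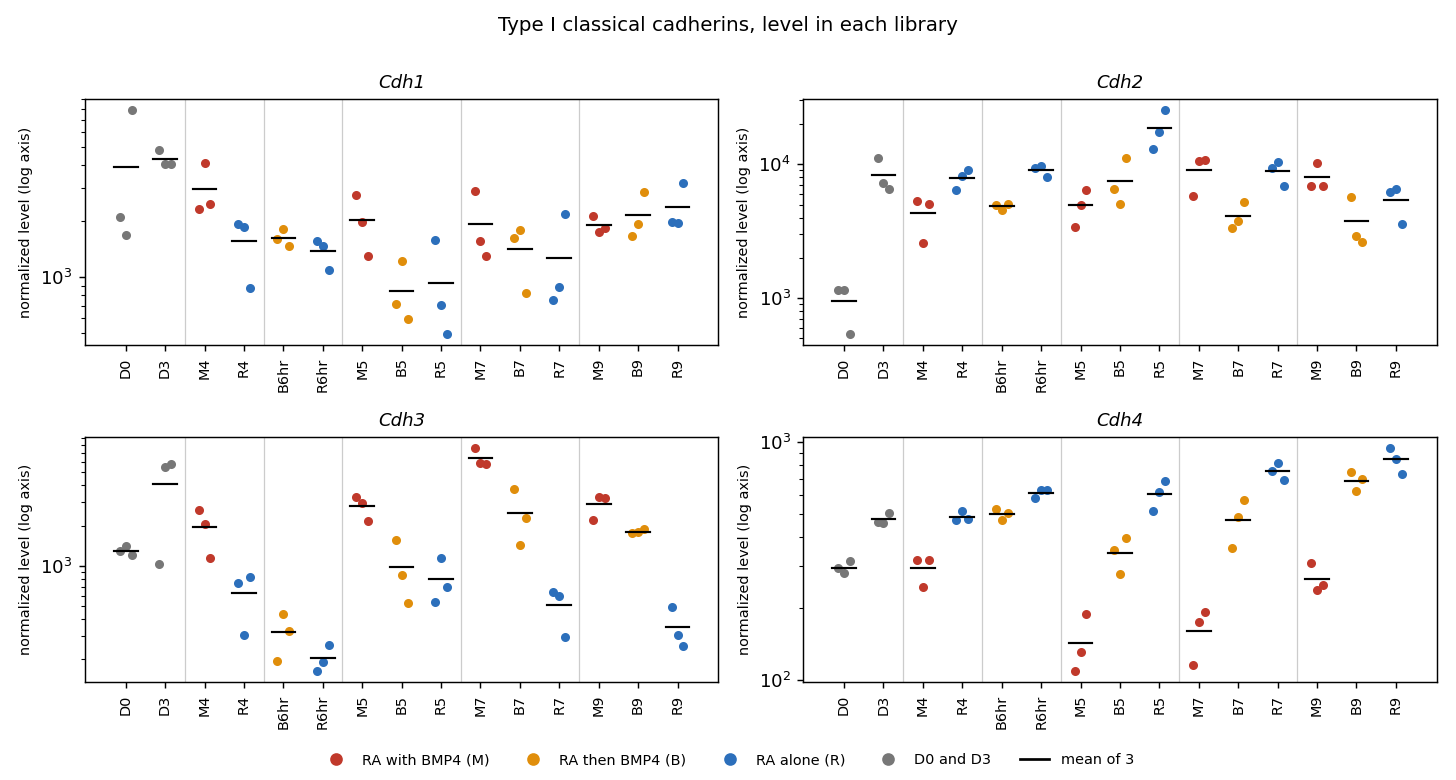
Normalized level (log axis) of Cdh1, Cdh2, Cdh3 and Cdh4 in each of the 45 libraries by group, with a bar at the mean of 3. Cdh3 lies between 5763 and 7643 in M7 against 294 to 640 in R7, Cdh4 is below R in every M group, and Cdh2 is highest in R5.

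Among the type II cadherins, Cdh6 was lower in M than in R from day 4 to day 7. Cdh6, known in kidney and in the neural tube and early neural crest, lies on chromosome 15 at 13028701 to 13173675 (minus strand), and its promoter had no match to the motifs shown above. It was at 1896, 2048 and 3003 in R4, against 326, 256 and 256 in D3, a change of 3.03 (SE 0.64, adjusted p = 0.00055). After 24 h of RA with BMP4 it was at 428, 98.9 and 434 in M4, and M4 was lower than R4 by -3.10 (SE 0.64, adjusted p = 0.00095). The M4 mean was 320, beside 279 in D3 and 256 in D0. On day 5 Cdh6 was at 174, 226 and 497 in M5, at 2448, 1238 and 3059 in B5 and at 1323, 2018 and 2262 in R5. M5 was below all libraries of B5 and R5, which overlapped each other. The change was -2.75 for M5 against R5 (SE 0.64, adjusted p = 0.00073), -2.96 for M5 against B5 (SE 0.64, adjusted p = 0.0013) and 0.21 for B5 against R5 (adjusted p = 0.9).

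Later the arms came closer in Cdh6. It was at 242, 711 and 716 in M7, at 558, 636 and 1050 in B7 and at 1848, 2433 and 965 in R7. M7 lay below R7 by -1.71 (SE 0.64, adjusted p = 0.029; 0.076, 0.11 and 0.18 without R7 replicate 1, R7 replicate 2 and M7 replicate 1), and B7 overlapped R7 (change -1.18, adjusted p = 0.18). On day 9 it was at 446, 942 and 642 in M9, at 1560, 475 and 493 in B9 and at 1415, 1433 and 506 in R9, and all 3 groups overlapped. M9 against R9 was -0.64 (adjusted p = 0.41), and the difference of the M effect between days 9 and 5 was 2.11 (SE 0.90, adjusted p = 0.062). Cdh6 was lower in B9 than in B5 by -1.55 (SE 0.64, adjusted p = 0.047; 0.1, 0.17, 0.17 and 0.17 without B5 replicate 1, B5 replicate 3, B9 replicate 2 and B9 replicate 3). B6hr was at 629, 1717 and 3084 and R6hr at 1389, 2785 and 3561, and these groups overlapped.

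Cdh7, known from the chick neural tube and neural crest, and Cdh20 and Cdh22, both neural type II cadherins, were also lower in M. Cdh7 was at 2.25, 5.02 and 17.8 in M5, at 28.9, 12.5 and 38.5 in B5 and at 38, 74.3 and 96.5 in R5. M5 against R5 was -3.20 (SE 0.54, adjusted p = 1.6e-05), M7 against R7 -2.82 (SE 0.54, adjusted p = 8.5e-05) and M9 against R9 -1.74 (SE 0.54, adjusted p = 0.0084). Cdh22 separated the arms most on days 7 and 9. It was at 19.6, 37.6 and 61.5 in M7, at 75.6, 88.7 and 149 in B7 and at 254, 287 and 103 in R7. The change was -2.42 for M7 against R7 (SE 0.50, adjusted p = 0.00022) and -1.46 for M7 against B7 (SE 0.50, adjusted p = 0.02; 0.1 and 0.13 without B7 replicate 3 and M7 replicate 1). On day 9 Cdh22 was at 48, 59.8 and 64.2 in M9, at 169, 146 and 157 in B9 and at 399, 349 and 203 in R9, in 3 ranges without overlap. M9 against R9 was -2.40 (SE 0.50, adjusted p = 0.00022), M9 against B9 -1.45 (SE 0.50, adjusted p = 0.017; 0.056 without M9 replicate 1) and B9 against R9 -0.95 (adjusted p = 0.22). M5 was below B5 by -2.22 (SE 0.50, adjusted p = 0.0021), and R9 above R5 by 1.62 (SE 0.50, adjusted p = 0.012; 0.053 without R9 replicate 1). Cdh20 was lower in M5 than in R5 by -2.01 (SE 0.63, adjusted p = 0.0099; 0.11 without M5 replicate 2) and in M9 than in R9 by -1.76 (SE 0.63, adjusted p = 0.02; 0.05 and 0.19 without R9 replicate 2 and M9 replicate 2).

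Cdh10, a brain cadherin, went the other way with time in M. It was at 121, 71.2 and 67.4 in M4 and at 193, 109 and 254 in R4 (change -1.06, SE 0.31, adjusted p = 0.019; 0.07, 0.15, 0.099 and 0.084 without R4 replicate 1, R4 replicate 3, M4 replicate 2 and M4 replicate 3). By day 7 it was at 261, 237 and 367 in M7, at 75.9, 65.6 and 106 in B7 and at 77.4, 102 and 53.2 in R7. M7 was above every B7 and R7 library, by 1.80 (SE 0.31, adjusted p = 3.1e-05) and 1.91 (SE 0.31, adjusted p = 8.8e-06). On day 9 it was at 170, 245 and 232 in M9, at 168, 142 and 94.4 in B9 and at 80.1, 68.7 and 58.9 in R9. M9 against R9 was 1.62 (SE 0.31, adjusted p = 7.6e-05), M9 against M5 was 1.77 (SE 0.31, adjusted p = 7.4e-05), and the difference of the M effect between the days was 2.10 (SE 0.44, adjusted p = 0.00041). B9 against R9 was 0.92 (SE 0.31, adjusted p = 0.049), a call lost without R9 replicate 1 (0.055), R9 replicate 2 (0.12), R9 replicate 3 (0.16), B9 replicate 1 (0.19) or B9 replicate 2 (0.12).

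Cdh5, the VE-cadherin of endothelial junctions, was higher in M. It was at 448, 236 and 174 in M4, against 89.1, 41.7 and 26.3 in R4 (change 2.49, SE 0.58, adjusted p = 0.0029). On day 5 it was at 402, 631 and 611 in M5, at 251, 116 and 280 in B5 and at 69.9, 127 and 112 in R5. M5 was above every other library of that day, with 2.42 against R5 (SE 0.58, adjusted p = 0.00098) and 1.41 against B5 (adjusted p = 0.088). On day 7 it was at 106, 278 and 470 in M7, at 102, 197 and 301 in B7 and at 41.1, 47.5 and 26.3 in R7. Both BMP4 groups were above R7, by 2.66 in M7 (SE 0.58, adjusted p = 0.00035) and 2.26 in B7 (SE 0.58, adjusted p = 0.0057). On day 9 the means were 168 ± 25.8 in M9, 132 ± 69.9 in B9 and 99.7 ± 47.4 in R9, and no comparison was called. M9 was below M5 by -1.69 (SE 0.58, adjusted p = 0.029; 0.091, 0.077, 0.062 and 0.096 without M5 replicate 2, M5 replicate 3, M9 replicate 1 and M9 replicate 2). D3 averaged 79.1 ± 42.1 and D0 232 ± 139 (change -1.47, SE 0.58, adjusted p = 0.031; 0.12, 0.17 and 0.22 without D0 replicate 1, D0 replicate 2 and D3 replicate 1), and B6hr averaged 91.2 ± 34.4 and R6hr 95.8 ± 25.9. The summed level of 4 other endothelial genes (Pecam1, Tek, Kdr and Emcn) was 2013 to 2600 in M5 against 460 to 1017 in R5 and 1214 to 1455 in M7 against 256 to 533 in R7. Pcdh12, a protocadherin of endothelium, was at 57.4, 84.5 and 78.9 in M5 against 8.38, 22.5 and 26.4 in R5 (change 2.01, SE 0.53, adjusted p = 0.0027). It was also higher in M7 than in R7 (2.37, SE 0.53, adjusted p = 0.00053) and in B7 than in R7 (2.16, SE 0.53, adjusted p = 0.0047). By day 9 it was lower in M9 than in M5 (-1.51, SE 0.53, adjusted p = 0.034), and M9 overlapped R9 (change 0.35, adjusted p = 0.6). How the B7 and M9 calls depend on single libraries is not given here. The part of the endothelial genes in these results was not tested.

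Cdh19, which marks Schwann cell precursors of neural crest origin, was highest in the sequential arm on day 7. It was at 2.3, 8.39 and 13.2 in M7, at 56.6, 63.3 and 54.4 in B7 and at 14.1, 17.7 and 2.21 in R7. All B7 libraries lay above all others of that day. B7 against R7 was 2.61 (SE 0.67, adjusted p = 0.0058; 0.066 without R7 replicate 3) and M7 against B7 -2.95 (SE 0.67, adjusted p = 0.00068). Day 9 values were 4.45, 4.79 and 5.11 in M9, 19.6, 8.89 and 16.8 in B9 and 2.23, 1.4 and 0.721 in R9, and B9 against R9 was 2.70 (SE 0.67, adjusted p = 0.0079). Among neural crest genes, Foxd3 averaged 25.7 ± 11.6 in M7, 796 ± 214 in B7 and 31.9 ± 20.4 in R7, and Sox10 averaged 253 ± 229 in M7, 1248 ± 153 in B7 and 274 ± 206 in R7 (SD, n = 3 each). Both were called higher in B7 than in R7, Sox10 not without R7 replicate 3 (adjusted p = 0.15). Both were also called higher in B9 than in R9, and not without R9 replicate 3 (adjusted p = 0.063 for Sox10 and 0.073 for Foxd3). The B9 call of Sox10 ended without B9 replicate 1 as well (0.066), and that of Foxd3 without R9 replicate 2 (0.11), B9 replicate 2 (0.068) or B9 replicate 3 (0.071). Ets1 was not called in either comparison and was highest of these groups in M7, at 3310 ± 117 in M7, 933 ± 55 in B7 and 1031 ± 93.3 in R7. The part of these genes in the Cdh19 result was not tested. Cdh8, a neural cadherin, was higher in B7 than in R7 by 1.68 (SE 0.56, adjusted p = 0.029; 0.15, 0.084, 0.061 and 0.059 without R7 replicate 3, B7 replicate 1, B7 replicate 2 and B7 replicate 3) and lower in R4 than in D3 by -1.72 (SE 0.56, adjusted p = 0.022; 0.11, 0.14 and 0.19 without D3 replicate 2, D3 replicate 3 and R4 replicate 2).

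Cdh24, another type II cadherin, showed small changes with narrow errors. It was at 768, 907 and 746 in M9, at 367, 362 and 315 in B9 and at 553, 517 and 472 in R9. The 3 groups did not overlap, with M9 the highest and B9 the lowest. M9 against R9 was 0.65 (SE 0.15, adjusted p = 0.00051), M9 against B9 1.21 (SE 0.15, adjusted p = 1.3e-07) and B9 against R9 -0.56 (SE 0.15, adjusted p = 0.011; 0.063 without B9 replicate 3). B7 was lower than R7 by -0.55 (SE 0.15, adjusted p = 0.0075) and M7 higher than B7 by 0.79 (SE 0.15, adjusted p = 7.3e-05). From day 5 to day 9 it changed in B by -1.24 (SE 0.15, adjusted p = 2e-07) and in R by -0.85 (SE 0.15, adjusted p = 4.3e-05), and M9 against M5 was 0.07 (adjusted p = 0.76). R4 was above D3 by 0.50 (SE 0.15, adjusted p = 0.01; 0.086 and 0.069 without D3 replicate 3 and R4 replicate 2). The remaining type II members, Cdh9, Cdh12 and Cdh18, stayed under a mean of 50 in every group. Cdh12 was at 8.14 ± 3.64 in M9 and 9.77 ± 3.05 in B9 against 2.95 ± 0.669 in R9 and was called higher in both. Without R9 replicate 3 its adjusted p was 0.092 for M9 and 0.11 for B9, and without R9 replicate 2 it was 0.054 and 0.08. The M9 call also ended without M9 replicate 1 (0.086) or M9 replicate 2 (0.14), and the B9 call without B9 replicate 1 (0.079) or B9 replicate 2 (0.11). Cdh18 was lower in M4 than in R4 by -2.01 (SE 0.45, adjusted p = 0.002) and in B5 than in R5 by -1.50 (SE 0.45, adjusted p = 0.04; 0.15, 0.13 and 0.28 without R5 replicate 2, R5 replicate 3 and B5 replicate 1), and Cdh9 lower in M9 than in B9 by -1.49 (SE 0.51, adjusted p = 0.015; 0.074 and 0.078 without B9 replicate 2 and M9 replicate 2).

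**Figure D3:**
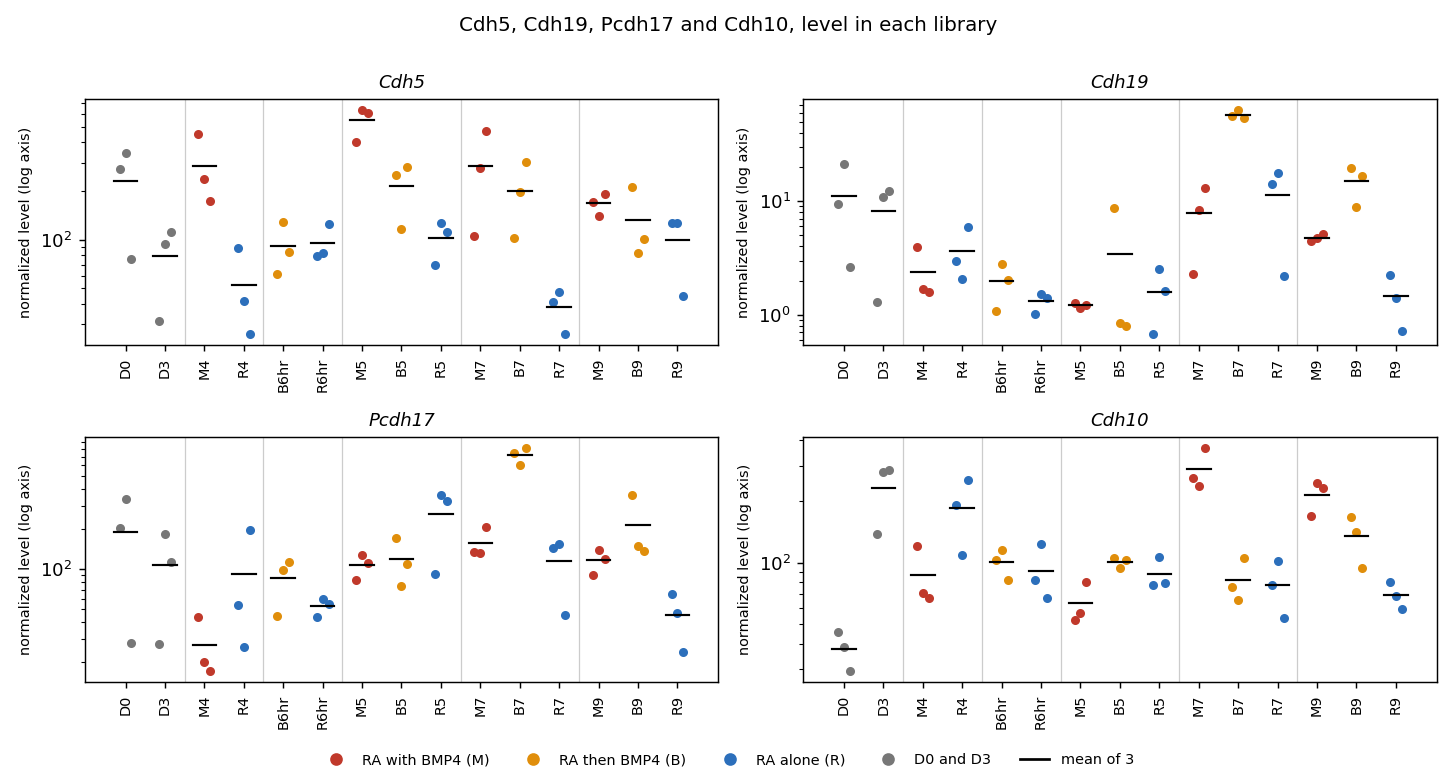
Normalized level (log axis) of Cdh5, Cdh19, Pcdh17 and Cdh10 in each library by group, with a bar at the mean of 3. Cdh5 is highest in M5 (402 to 631), Cdh19 and Pcdh17 are highest in B7 (54.4 to 63.3 and 610 to 815), and Cdh10 in M7 (237 to 367).

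Of the 3 other Cdh genes, Cdh13 and Cdh23 lack the classical tail. Cdh13, the lipid-anchored T-cadherin, was at 70.7 to 128 in M9 libraries, 283 to 364 in B9 and 139 to 241 in R9. B9 was the highest group and separate from the others, and M9 was lower than B9 by -1.82 (SE 0.52, adjusted p = 0.0044), with -1.04 against R9 (adjusted p = 0.093). It rose between days 5 and 9 by 2.71 in B (SE 0.52, adjusted p = 0.00012) and by 1.94 in R (SE 0.52, adjusted p = 0.0037). D3 was lower than D0 by -1.27 (SE 0.52, adjusted p = 0.037), with adjusted p of 0.069, 0.095, 0.052 and 0.4 without D0 replicate 1, D0 replicate 2, D0 replicate 3 and D3 replicate 1. Cdh23 forms the hair-cell tip link together with Pcdh15. Cdh23 was at 22.9, 14.7 and 15 in M9, at 37.8, 15.1 and 46.8 in B9 and at 73.5, 57.6 and 60.1 in R9. It was lower in M9 than in R9 by -1.82 (SE 0.31, adjusted p = 1.7e-05) and in B9 by -1.05 (SE 0.31, adjusted p = 0.026; 0.08, 0.06, 0.06 and 0.24 without R9 replicate 1, R9 replicate 2, R9 replicate 3 and B9 replicate 2). Pcdh15 was lower in M7 than in R7 by -2.12 (SE 0.49, adjusted p = 0.00074), at a mean of 1.44 in M7 and 11.3 in R7. Cdh26, an epithelial cadherin, had a highest mean of 11.4 (D0) and was called in no comparison.

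Of the delta-1 protocadherins, Pcdh7 rose with RA and BMP4 given together and kept that difference to day 9. Pcdh7, first described as NF-protocadherin in the frog neural fold, lies on chromosome 5 at 57717967 to 58133230 (plus strand), and its promoter, placed above by the RefSeq start, held the CAGGTG shown. It was at 1272, 815 and 647 in M4, overlapping 491, 379 and 742 in R4 (change 0.76, adjusted p = 0.23). On day 5 it was at 1257, 1506 and 1213 in M5, at 1168, 664 and 629 in B5 and at 214, 474 and 384 in R5. M5 was above all libraries of the other groups, by 1.96 against R5 (SE 0.40, adjusted p = 0.00019), and B5 against R5 was 1.21 (adjusted p = 0.066). On day 7 it was at 1976, 1958 and 2082 in M7, at 508, 313 and 544 in B7 and at 456, 584 and 196 in R7. M7 stood far above both, B7 and R7 overlapped, and the SD of M7 was 3.35% of its mean. M7 against R7 was 2.42 (SE 0.40, adjusted p = 1.1e-05) and M7 against B7 2.18 (SE 0.40, adjusted p = 6.7e-05). On day 9 it was at 1500, 2462 and 1759 in M9, at 734, 468 and 439 in B9 and at 405, 312 and 200 in R9. The M9 over R9 change was 2.66 (SE 0.40, adjusted p = 2.4e-06) and M9 against B9 1.81 (SE 0.40, adjusted p = 0.00049), and B9 against R9 was 0.86 (adjusted p = 0.16). None of these calls in M5, M7 and M9 was lost when any 1 library was left out. D3 averaged 893 ± 390 and D0 415 ± 170 (change 1.08, SE 0.40, adjusted p = 0.022; 0.18, 0.12 and 0.091 without D0 replicate 3, D3 replicate 2 and D3 replicate 3), and B6hr averaged 421 ± 125 and R6hr 428 ± 93.7.

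Pcdh11x is an X-linked delta-1 protocadherin (chromosome X, 120290259 to 120910619, plus strand). It had the widest range of any member, a log2 ratio of 6.82 between its highest and lowest group means with 1 added to each. It was at 397, 652 and 841 in D3, against 5.52, 6.1 and 2.19 in D0, a change of 6.83 (SE 0.46, adjusted p = 7.5e-14). R4 was lower than D3 by -3.36 (SE 0.46, adjusted p = 1.5e-06), at 50, 32.9 and 115. M5 and R5 overlapped, with means of 69.2 ± 23.6 and 73.7 ± 39.8. By day 7 it was at 97.5, 103 and 225 in M7, at 53.8, 57.4 and 75.3 in B7 and at 34.9, 50.3 and 18 in R7, and M7 against R7 was 2.01 (SE 0.46, adjusted p = 0.00066). By day 9 it was at 214, 327 and 276 in M9, at 102, 50.6 and 47.1 in B9 and at 25, 25.7 and 13.1 in R9. The 3 groups were fully separate in the order M9, B9, R9. The M9 over R9 change was 3.66 (SE 0.46, adjusted p = 1.3e-07), M9 against B9 2.08 (SE 0.46, adjusted p = 0.00049) and B9 against R9 1.57 (SE 0.46, adjusted p = 0.024; 0.13 without R9 replicate 3 and 0.14 without B9 replicate 1). M9 was above M5 by 2.00 (SE 0.46, adjusted p = 0.0016), and R9 lower than R5 by -1.66 (SE 0.46, adjusted p = 0.0052; 0.057 without R5 replicate 3).

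Pcdh1, the axial protocadherin found in several epithelia, was at 1512, 887 and 1272 in D3, against 293, 247 and 378 in D0 (change 1.98, SE 0.19, adjusted p = 1.3e-10), and lower in R4 than in D3 by -0.92 (SE 0.19, adjusted p = 0.00036). It was lower in the sequential arm, by -0.67 in B5 against R5 (SE 0.19, adjusted p = 0.028; 0.13, 0.054, 0.11 and 0.066 without R5 replicate 1, R5 replicate 3, B5 replicate 1 and B5 replicate 2) and by -0.89 in B7 against R7 (SE 0.19, adjusted p = 0.0013). Its day 9 levels were 1041, 773 and 774 in M9, 483, 465 and 454 in B9 and 603, 682 and 661 in R9. M9 was above and B9 below R9 in every library. M9 against B9 was 0.87 (SE 0.19, adjusted p = 0.00036), and neither group was called against R9 (0.40, adjusted p = 0.075 in M9, and -0.47, adjusted p = 0.095 in B9). M9 was above M5 by 0.81 (SE 0.19, adjusted p = 0.0015).

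Among the delta-2 protocadherins, Pcdh8, known as PAPC in the segmenting somites of the mouse, showed the largest early fall in M. It lies on chromosome 14 at 79766775 to 79771312 (minus strand), and its promoter held the GGCGCC printed above. It was at 124, 37.6 and 149 in M4, against 1226, 1203 and 1723 in R4, a change of -3.93 (SE 0.59, adjusted p = 1.8e-05). On day 5 it was at 69.1, 44.4 and 229 in M5, at 929, 417 and 1040 in B5 and at 806, 1909 and 2339 in R5. M5 was below every other library of the day, and B5 overlapped R5. M5 against R5 was -4.09 (SE 0.59, adjusted p = 1.4e-06), M5 against B5 -3.04 (SE 0.59, adjusted p = 0.0004) and B5 against R5 -1.05 (adjusted p = 0.32). On day 7 it was at 79.4, 178 and 426 in M7, at 540, 744 and 976 in B7 and at 1293, 1563 and 483 in R7. M7 was lower than R7 by -2.44 (SE 0.59, adjusted p = 0.0011) and than B7 by -2.00 (SE 0.59, adjusted p = 0.0072; 0.075 without M7 replicate 1). The day 9 levels were 226, 212 and 275 in M9, 669, 603 and 585 in B9 and 830, 702 and 431 in R9, where M9 was still below all others. The M9 over R9 change was -1.41 (SE 0.59, adjusted p = 0.045), and this call was lost without R9 replicate 1 (0.14), R9 replicate 2 (0.1), M9 replicate 1 (0.09), M9 replicate 2 (0.11) or M9 replicate 3 (0.06). The M effect was smaller on day 9 than on day 5 by 2.68 (SE 0.83, adjusted p = 0.012). D3 averaged 492 ± 175 and D0 84 ± 22.5 (change 2.51, SE 0.59, adjusted p = 0.00053), R4 against D3 was 1.53 (adjusted p = 0.056), and B6hr averaged 330 ± 183 and R6hr 352 ± 190. Of the paraxial mesoderm and muscle genes, 0 were higher and 3 of 5 lower in M4 than in R4, and 1 was higher and 3 lower in M5 than in R5. Their summed level was 407 to 1660 in M4 against 4413 to 12890 in R4. It was 851 to 1858 in M5 against 4409 to 6976 in R5. On day 7 the sums overlapped, at 647 to 949 in M7 and 613 to 1172 in R7. On day 9 the sum was higher in M9, at 1184 to 2059 against 433 to 781 in R9, while Pcdh8 was lower in M9. The part of these genes in the Pcdh8 result was not tested.

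Pcdh19, an X-linked protocadherin (chromosome X, 133582860 to 133688987, minus strand) tied to epilepsy in humans, changed its order between the arms. It was at 345, 217 and 615 in M4, against 1099, 2244 and 1155 in R4, a change of -1.98 (SE 0.33, adjusted p = 8.6e-05). R4 was above D3, which was at 240, 513 and 423, by 1.92 (SE 0.33, adjusted p = 5e-05). On day 5 Pcdh19 was at 75.8, 82.7 and 180 in M5, at 281, 195 and 227 in B5 and at 274, 349 and 351 in R5. M5 was the lowest group, by -1.62 against R5 (SE 0.33, adjusted p = 0.00019) and -1.15 against B5 (SE 0.33, adjusted p = 0.015; 0.06, 0.11 and 0.091 without B5 replicate 1, M5 replicate 1 and M5 replicate 2). The day 7 means overlapped, at 347 ± 63.9 in M7, 454 ± 83.2 in B7 and 446 ± 134 in R7. In the day 9 groups it was at 932, 1000 and 736 in M9, at 591, 424 and 429 in B9 and at 368, 339 and 246 in R9. M9 was now above all B9 and R9 libraries. The M9 over R9 change was 1.49 (SE 0.33, adjusted p = 0.00042), M9 against B9 0.89 (SE 0.33, adjusted p = 0.026; 0.08, 0.08, 0.064 and 0.088 without B9 replicate 2, B9 replicate 3, M9 replicate 1 and M9 replicate 2), and M9 against M5 3.07 (SE 0.33, adjusted p = 3.6e-08). The difference of the M effect between days 9 and 5 was 3.12 (SE 0.47, adjusted p = 7.1e-06), the smallest adjusted p among the members for that contrast. B9 was above B5 by 1.04 (SE 0.33, adjusted p = 0.012; 0.053 without B5 replicate 2 and 0.058 without B9 replicate 1). D0 was at 235, 157 and 207, and B6hr averaged 604 ± 118 and R6hr 601 ± 160.

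Pcdh18 (chromosome 3, 49743296 to 49757325, minus strand), a protocadherin expressed in embryonic mesenchyme and nervous system, was high in D3 and again late in M. It was at 3355, 4097 and 3925 in D3, against 208, 225 and 77.8 in D0, a change of 4.61 (SE 0.42, adjusted p = 5.6e-11), and lower in R4 by -1.19 (SE 0.42, adjusted p = 0.034; 0.1, 0.09, 0.099 and 0.12 without D3 replicate 2, D3 replicate 3, R4 replicate 1 and R4 replicate 2). M4 was at 1008, 397 and 844 and R4 at 1443, 1397 and 2241, a change of -1.25 (SE 0.42, adjusted p = 0.041; 0.064, 0.056, 0.18 and 0.31 without R4 replicate 1, R4 replicate 2, R4 replicate 3 and M4 replicate 2). M5 overlapped R5, at 1104 ± 326 in M5, 1178 ± 338 in B5 and 2128 ± 892 in R5. On day 7 it was at 1996, 3282 and 3748 in M7, at 999, 963 and 1343 in B7 and at 1534, 1888 and 725 in R7. M7 was above both groups, by 1.42 against B7 (SE 0.42, adjusted p = 0.0073) and by 1.18 against R7 (SE 0.42, adjusted p = 0.021; 0.17, 0.067 and 0.087 without R7 replicate 3, M7 replicate 2 and M7 replicate 3). By day 9 it was at 2318, 3877 and 3075 in M9, at 1721, 776 and 694 in B9 and at 996, 977 and 444 in R9. M9 was above all others, with 2.00 against R9 (SE 0.42, adjusted p = 0.0002) and 1.63 against B9 (SE 0.42, adjusted p = 0.0019), and B9 overlapped R9. The M effect differed between days 9 and 5 by 2.88 (SE 0.59, adjusted p = 0.00032). R9 was lower than R5 by -1.38 (SE 0.42, adjusted p = 0.0091; 0.064 without R5 replicate 3 and 0.089 without R9 replicate 3), and M9 higher than M5 by 1.50 (SE 0.42, adjusted p = 0.0078; 0.056 without M5 replicate 1). B6hr averaged 886 ± 91.8 and R6hr 1278 ± 28.8.

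Pcdh17, a protocadherin of synapses and growing axons, was highest in B7. It was at 134, 132 and 208 in M7, at 741, 610 and 815 in B7 and at 145, 155 and 45.5 in R7. B7 stood apart from every other library of the 45, with 2.82 against R7 (SE 0.72, adjusted p = 0.006), and M7 was lower than B7 by -2.21 (SE 0.72, adjusted p = 0.014). Its day 9 levels were 90.2, 140 and 119 in M9, 361, 150 and 138 in B9 and 65.2, 47.1 and 23.9 in R9. B9 against R9 was 2.19 (SE 0.72, adjusted p = 0.043), lost without R9 replicate 2 (0.097), R9 replicate 3 (0.17), B9 replicate 1 (0.18), B9 replicate 2 (0.065) or B9 replicate 3 (0.062). The M9 over R9 change was 1.42 (adjusted p = 0.098). R9 was lower than R5 by -2.37 (SE 0.72, adjusted p = 0.0097; 0.052, 0.051 and 0.061 without R5 replicate 2, R5 replicate 3 and R9 replicate 3). The early means were 27.1 ± 14.6 in M4 and 92.1 ± 91.6 in R4, 85.5 ± 36.6 in B6hr and 52.8 ± 8.18 in R6hr, 107 ± 22.4 in M5, 119 ± 49.4 in B5 and 259 ± 146 in R5, and 108 ± 78.4 in D3 and 190 ± 155 in D0, with overlap in the D3, M4 and day 5 comparisons. Pcdh20 followed B7 as well, at 45.6, 78.8 and 104 in B7 against 22.6, 32.6 and 5.99 in R7 (change 2.05, SE 0.46, adjusted p = 0.0022), and was lower in M5 than in R5 by -1.95 (SE 0.46, adjusted p = 0.0009), in M7 than in B7 by -1.45 (SE 0.46, adjusted p = 0.012; 0.069 and 0.094 without B7 replicate 3 and M7 replicate 1) and in M9 than in B9 by -1.09 (SE 0.46, adjusted p = 0.046). The M9 call ended without B9 replicate 1 (0.14), B9 replicate 2 (0.05), B9 replicate 3 (0.084), M9 replicate 1 (0.092) or M9 replicate 2 (0.16). The summed level of 5 neuron genes was higher in B7 as well, with 1516 to 4748 in M7, 34763 to 48161 in B7 and 3568 to 16236 in R7. Of these genes, 2 were called higher in B7 than in R7 (12.1% of all genes). In M7, 5 were called lower than in B7 (19.9%), and in B9 against R9 0 were called (11.8%). The D0 sum was 10245 to 17421 and that of B9 14199 to 16923. The part of the neuron genes in these results was not tested. Pcdh10, a protocadherin of the forebrain, varied most between libraries among the 31 members outside the clusters, with an SD of a median 64.5% of the mean, and was at 26.6, 560 and 850 in D3 libraries. R4 and D3 overlapped, and R4 was lower by -3.17 (SE 1.05, adjusted p = 0.024; 0.14, 0.19 and 0.17 without D3 replicate 2, D3 replicate 3 and R4 replicate 2).

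**Figure D4:**
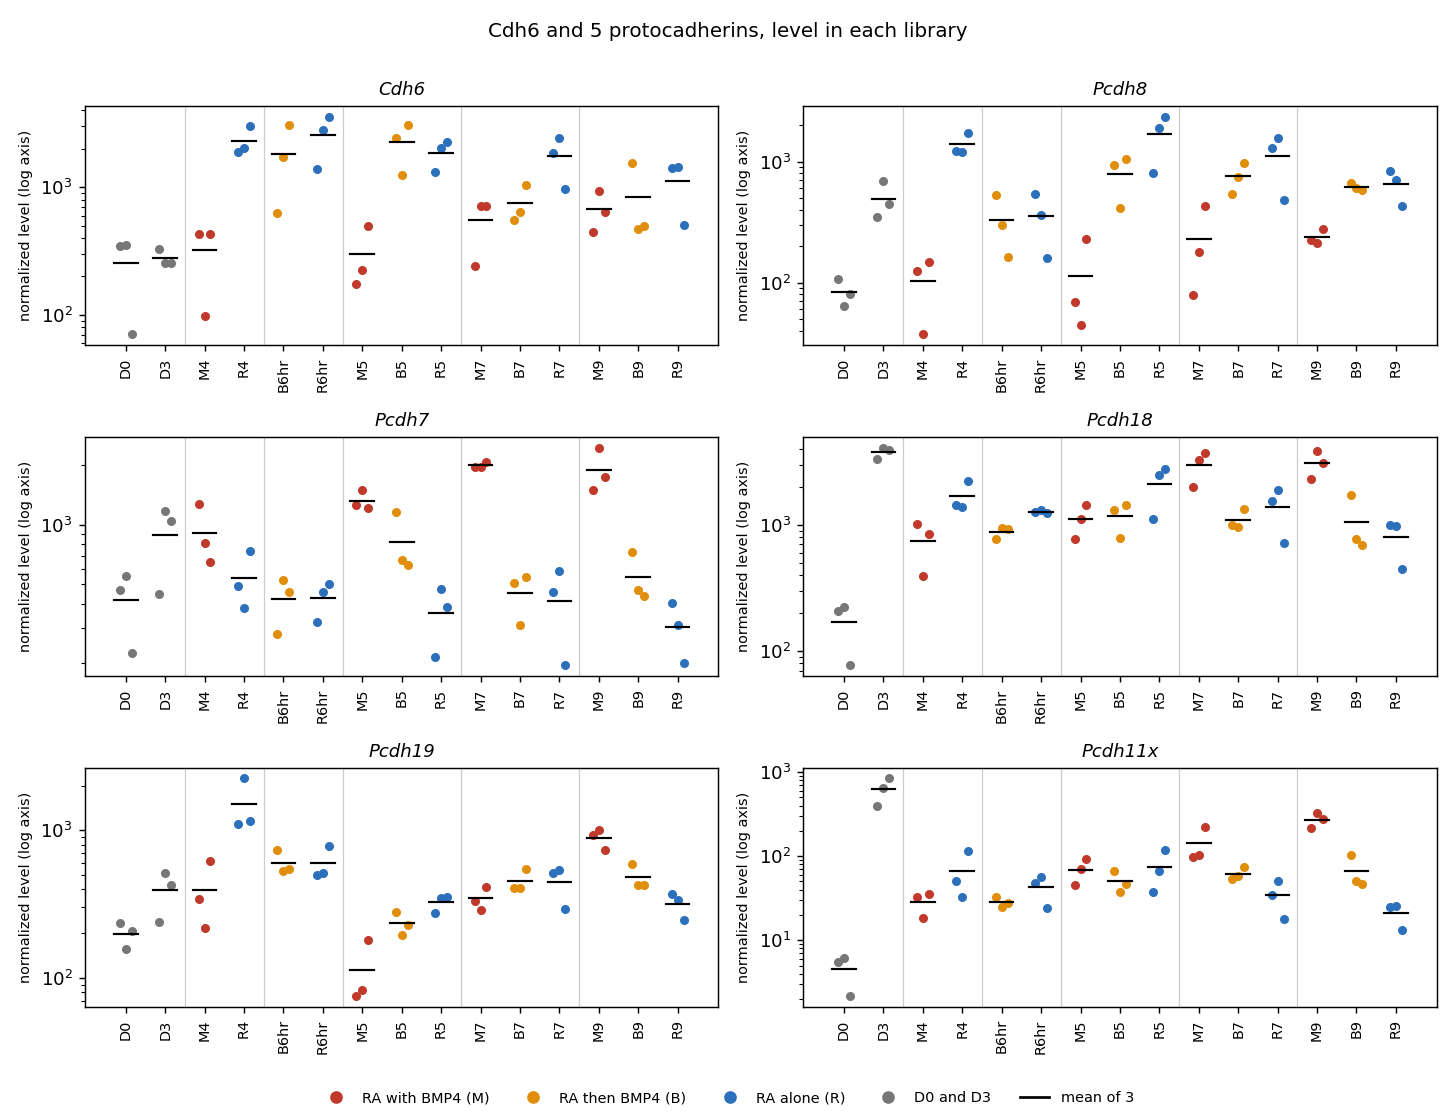
Normalized level (log axis) of Cdh6, Pcdh8, Pcdh7, Pcdh18, Pcdh19 and Pcdh11x in each library by group, with a bar at the mean of 3. Cdh6 and Pcdh8 are low in M4 and M5 against R4 and R5, Pcdh7 is high in M5, M7 and M9, and Pcdh18, Pcdh19 and Pcdh11x are higher in M9 than in R9.

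The clustered protocadherins lie in tandem on chromosome 18, and 37 of the 38 listed here were found there in GENCODE M21 (Pcdha11 was not). GENCODE M21 annotates 13 protein-coding Pcdha, 22 Pcdhb and 21 Pcdhg genes. Alpha and gamma genes splice their own first exon to shared constant exons, and beta genes are close copies of each other. Whether reads were counted by exon or strand is not given in the sources used here, so values of single clustered genes are uncertain. Pcdhgc3, a gamma gene of the C type, was at 5153, 4508 and 4432 in D3 libraries, against 936, 1002 and 779 in D0 (change 2.38, SE 0.22, adjusted p = 6.4e-11).

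The 7 alpha genes were low, with no group mean of 50 or more. Called lower than in R were 0 of them in M4, 2 in M5, 4 in M7 and 1 in M9, and none was called higher. In the same order, 7.37%, 23.3%, 20.6% and 23.5% of all genes were called lower, and 6.76%, 21%, 22.9% and 27.5% higher. Their summed level was 25.8, 27.5 and 59.3 in M7, 74.4, 88.5 and 140 in B7 and 129, 131 and 74.7 in R7. M7 was below both other groups. Of 7 alpha estimates for M7 against R7, 7 were negative with a median of -1.61, and the 4 called lower, beside 20.6% of all genes, were Pcdha3, Pcdha11, Pcdha12 and Pcdhac2. All-gene medians for the same comparison were 0.01. Unlike their sum, the libraries of M7 and R7 overlapped in Pcdha3, Pcdha11 and Pcdha12, and only Pcdhac2 was separate. M7 replicate 3 was at 11.1, 9.59 and 18.6 in these overlapping genes, against 8.8, 7.56 and 13.1 in R7 replicate 3. How these calls depend on single libraries is not given here. Pcdhac2 was at 5.99, 5.31 and 11.9 in M5 against 28.2, 30.5 and 18.5 in R5 (change -1.66, SE 0.35, adjusted p = 0.00028), and 27.5, 40.3 and 38.2 in M9 against 28.8, 31.9 and 30 in R9, so that the M effect differed between the days by 1.86 (SE 0.50, adjusted p = 0.0038).

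The 13 gamma genes tended the other way late in M. For M9 against R9, 12 of 13 estimates were positive with a median of 0.67, against 0.04 over all genes, and 5 were called higher, beside 27.5% of all genes. For M9 against B9, 8 of 13 were called higher (27.8% of all genes) and 0 lower (23.7%), and for M7 against B7, 6 higher (21.7%) and 0 lower (19.9%). The summed level without Pcdhgc3 was 1058, 1427 and 1116 in M9, 1039, 634 and 623 in B9 and 1005, 934 and 558 in R9. M9 was above B9 and R9 in each library. Pcdhgc3 was at 4135, 5156 and 4648 in M9, at 3233, 2129 and 1976 in B9 and at 3399, 3146 and 1920 in R9. M9 against B9 was 0.95 (SE 0.22, adjusted p = 0.00062) and M9 against R9 0.76 (SE 0.22, adjusted p = 0.0044; 0.069 without R9 replicate 3), and M7 against B7 was 0.97 (SE 0.22, adjusted p = 0.00065). Pcdhgc5 was at 44.1, 74.4 and 52 in M9 against 23.8, 11.2 and 21.1 in R9 (change 1.58, SE 0.29, adjusted p = 3.8e-05). Pcdhgc4 was lower in B7 than in R7 by -1.68 (SE 0.44, adjusted p = 0.007).

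In M5, 3 gamma genes were called higher than in R5 (Pcdhga1, Pcdhgb8 and Pcdhga12) and 0 lower, beside 21% and 23.3% of all genes. GENCODE M21 lists Pcdhgb8 as a polymorphic pseudogene. Pcdhga12 was at 55.9, 60 and 53.6 in M5, at 25.9, 20 and 28.7 in B5 and at 13.1, 21 and 10.6 in R5. M5 was above every B5 and R5 library, by 1.17 (SE 0.24, adjusted p = 0.00093) and by 1.90 (SE 0.24, adjusted p = 2.1e-07). D3 was lower than D0, at 35.7, 41.2 and 51.3 against 68.4, 67.8 and 63.9 (change -0.65, SE 0.24, adjusted p = 0.025). Pcdhga1 was higher in B9 than in B5 by 1.24 (SE 0.35, adjusted p = 0.0047).

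Of the 18 beta genes, 4 were called higher in D3 than in D0 (Pcdhb2, Pcdhb3, Pcdhb8 and Pcdhb22), beside 30.9% of all genes. Pcdhb10 alone was called lower in M9 than in B9 (23.7% of all genes), by -2.07 (SE 0.82, adjusted p = 0.036; 0.16, 0.052, 0.11 and 0.08 without B9 replicate 1, B9 replicate 2, M9 replicate 1 and M9 replicate 2). None was called in the other 15 comparisons, where the share of all genes called ran from 0.0178% (B6hr against R6hr) to 51% (M9 against R9). For M4 against R4 all 18 estimates were negative with a median of -0.55, and 2 had an unadjusted p under 0.05. Their libraries spread widely, with summed levels of 1357, 280 and 581 in M4 and 850, 509 and 1856 in R4. The R7 sums were 1861, 2558 and 426, the lowest in the library that stood apart on neuron genes.

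**Figure D5:**
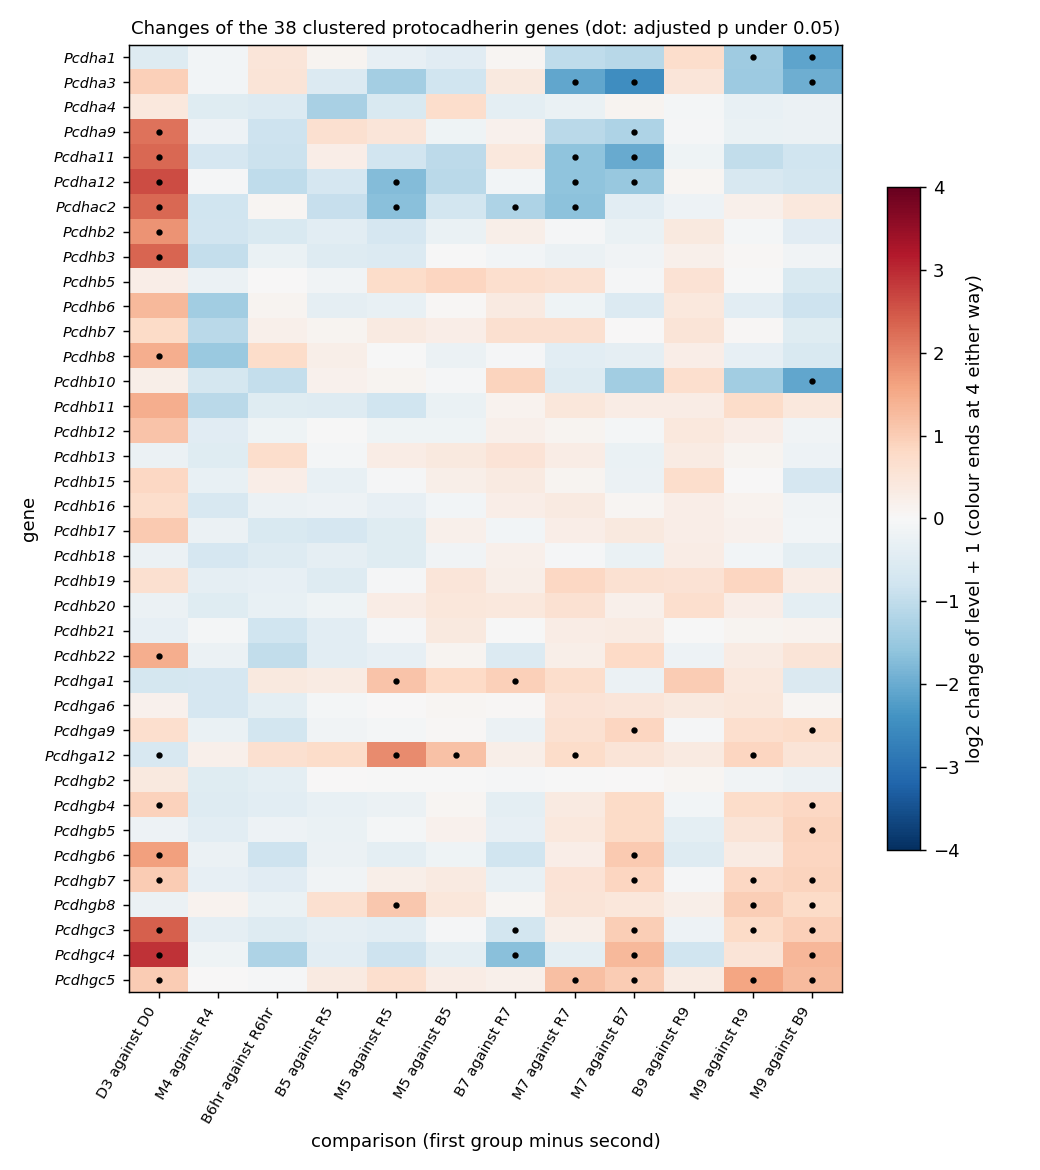
Log2 changes of level + 1 for the 38 clustered protocadherin genes (rows) in 12 comparisons (columns, first group minus second); red is higher and blue lower in the first group, the colour ends at 4 either way, and a dot marks an adjusted p under 0.05. Dots of the beta genes are in D3 against D0, with 1 in M9 against B9, most alpha genes run blue in the M7 columns, and most gamma genes run red in the M9 columns.

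Other adhesion genes and regulators were followed through lists of related genes. The shares of all genes called higher and lower, beside which these list counts stand, were 6.76% and 7.37% for M4 against R4, 21% and 23.3% for M5 against R5, 22.9% and 20.6% for M7 against R7 and 27.5% and 23.5% for M9 against R9. Of 12 catenins and junction partners, 10 were listed in the table. For M5 against R5, 3 were higher and 5 lower (median -0.54), for M7 against R7, 3 higher and 4 lower, and for M9 against R9, 4 higher and 1 lower (median 0.09). Ctnna1, the alpha-E-catenin, was higher in M5 than in R5 by 0.56 (adjusted p = 2.3e-06), Ctnnd1, p120-catenin, by 0.65 (adjusted p = 3.4e-07) and Jup, plakoglobin, by 2.42 (adjusted p = 4.9e-07). Ctnna2, the neural alpha-catenin, was lower by -2.70 (adjusted p = 0.00071) and Arvcf, a p120 relative, by -1.45 (adjusted p = 7.8e-07). On day 9 Ctnna1, Ctnnd1 and Jup were still higher in M9 than in R9, by 0.43, 0.32 and 1.07, and Arvcf lower by -1.81 (adjusted p = 1.3e-08). Vcl, the actin linker vinculin, was lower in M5 than in R5 by -1.15 (adjusted p = 2.7e-07) and higher in M9 than in R9 by 0.71 (adjusted p = 0.00022). Of 4 nectins, a separate family of adhesion molecules, 3 were listed (as Pvrl1, Pvrl3 and Pvrl4). In M5 against R5, 0 were higher and 2 lower, Nectin1 by -0.64 (adjusted p = 0.0011) and Nectin3 by -0.59 (adjusted p = 6.6e-06). In M9 against R9, Nectin4 was higher by 1.98 (adjusted p = 2.4e-05) and Nectin3 by 0.25 (adjusted p = 0.027; 0.065, 0.11 and 0.2 without R9 replicate 1, R9 replicate 3 and M9 replicate 2), and Nectin1 was lower by -0.79 (adjusted p = 9.1e-05).

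Of 23 other cadherin superfamily genes, 18 were listed. For M5 against R5, 4 were higher and 5 lower, for M7 against R7, 3 higher and 4 lower, and for M9 against R9, 4 higher and 5 lower, with medians of -0.25, -0.03 and -0.00. The seven-pass cadherins of planar polarity, Celsr1, Celsr2 and Celsr3, were lower in M5, M7 and M9 than in R of the same day, Celsr2 by -3.37 on day 5 (adjusted p = 2.7e-08) and by -2.31 on day 9 (adjusted p = 1.2e-05). Of 3 desmosomal cadherins in the table, Dsg2 was higher in M7 than in R7 by 2.60 (adjusted p = 6.2e-08) and in M9 than in R9 by 1.47 (adjusted p = 0.00027). Dsc2 was higher by 2.35 in M7 (adjusted p = 9.3e-11) and 2.51 in M9 (adjusted p = 3.5e-11), and Dsc3 was at 0.37 in M7 against R7 (adjusted p = 0.54) and higher in M9 by 1.86 (adjusted p = 0.00099). Fat3, a neural giant cadherin, was lower in M5 than in R5 by -3.02 (adjusted p = 6.4e-05).

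Of 12 transcription factors of epithelial to mesenchymal transition, 10 were listed. In M4 against R4, 6 were higher and 1 lower, in M5 against R5, 7 higher and 1 lower, in M7 against R7, 6 higher and 0 lower, and in M9 against R9, 6 higher and 0 lower, with medians of 1.87, 1.69, 1.80 and 1.37. The factors that rose were of both kinds. Snai1 and Snai2, repressors of Cdh1 in epithelial cells, were higher in M5 than in R5 by 2.39 (adjusted p = 1.6e-08) and 2.30 (adjusted p = 0.00039). Grhl2 and Ovol1, which maintain epithelium, were higher by 3.02 (adjusted p = 9.1e-06) and 1.77 (adjusted p = 0.0026). The factor that was lower was Zeb2, by -1.79 in M4 (adjusted p = 0.00034) and -1.41 in M5 (adjusted p = 0.00098). In B7 against R7, 1 factor was higher and 0 lower, and in B9 against R9, 0 were called.

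Markers of 2 other cell classes moved with the M comparisons. Of 7 mesenchyme genes (Hand1, Hand2, Foxf1, Twist1, Pdgfra, Col1a1 and Col3a1), 5 were higher in M5 than in R5, 6 in M7 than in R7 and 5 in M9 than in R9, and none lower. Their summed level was 23961 to 31978 in M5 against 3806 to 13153 in R5, and 25282 to 43642 in M7 against 2126 to 13762 in R7. Of 6 surface epithelium genes (Krt8, Krt18, Epcam, Trp63, Tfap2a and Grhl2), 5 were higher in M4 than in R4, 4 in M5, 4 in M7 and 1 in M9, and none lower. Their sum was 8888 to 10223 in M5 against 4149 to 5092 in R5 and 3538 to 5014 in M9 against 4004 to 4724 in R9. No marker of either list was at 0 in any library. Among the members, Cdh3 was called higher than in R in M4, M5, M7 and M9, Cdh5 in M4, M5 and M7, and Pcdh7 in M5, M7 and M9. Cdh4 and Pcdh8 were called lower in M4, M5, M7 and M9, and Cdh6 in M4, M5 and M7. The part of these cell classes in those results was not tested. Twist1 and Grhl2 are also in the list of transition factors.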

How the data were processed

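RNA from 45 cultures was made into NuGEN libraries and read on a NovaSeq, as the labels' protocols state. The submitters' processing notes list Picard, edgeR and mm10 with no role or version. The sources used here give no aligner, counter or gene models. What the authors deposited is a normalized signal for each gene in each library, without a unit. Their deposited fpkm columns hold values that do not behave as FPKM and were treated as a score; these and the rank column were left aside. From the authors' deposited comparisons, log2 fold changes with their p-value and false discovery rate columns served only as an alternative test. Columns not matched to a sample numbered 0. Statements of the RA interval in the labels differ by a day, and the day in each title was used.

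A count test had been planned; because the levels are not counts, log2(level + 1) was fitted with limma 3.58.1 in R 4.3.3. The fit used a mean-variance trend, robust moderation and 1 mean for each of the 15 groups, with 16 pairwise comparisons and 1 difference of effects. A filter keeping genes at level 1 or more in 3 or more libraries removed 0 genes. Benjamini-Hochberg adjustment covered all 11220 genes, with calls under 0.05. The fit was tested on simulated data for M9 against R9, with 100 genes changed 2-fold and 100 changed 4-fold. It called 58% of the 2-fold and 88% of the 4-fold changes, with 12 false calls among 11220 genes. In each comparison, called members whose higher group mean reached 50 were ranked by adjusted p, and up to 5 risen and 5 fallen ones are named. Cdh1 to Cdh6, Pcdh7, Pcdh8, Pcdh17, Pcdh18 and Pcdh19 are described in every group. The members, gene lists and marker lists were chosen with earlier results of these data known, and additional members were named after their values were seen. Part of the neural crest marker list is not reported here.

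Replicate numbers were taken to pair libraries where all same-number correlations of deviations exceeded 0.1. This held only for B6hr with R6hr (0.586, 0.189 and 0.465, at most 0.146 between different numbers). Other settings tried were a block on the number, a fit of only the compared libraries, and leaving out single libraries. Pseudocounts of 0.1 and 5, no filter, a filter at level 10, quantile normalization, array weights and the authors' deposited test were also tried. The compared libraries alone with a block, and the 6 h groups without number 1, were added after seeing the data. Coordinates are from GENCODE M21. Tables and plots used Python 3.11.15, pandas 2.3.3 and matplotlib 3.10.9.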

Additional observations from a re-analysis of the deposited data

Results flagged for a closer look

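For 14 members the M against R effect on day 9 differed from that on day 5 by the interaction term of the limma fit (adjusted p over 11220 genes), which is what brought them here. Values are the day 9 effect minus the day 5 effect in log2 units. The largest were Pcdh11x at 3.66 (SE 0.65, adjusted p = 6.5e-05) and Pcdh19 at 3.12 (SE 0.47, adjusted p = 7.1e-06). Pcdh18 was at 2.88 (SE 0.59, adjusted p = 0.00032), Pcdh8 at 2.68 (SE 0.83, adjusted p = 0.012) and Cdh2 at 2.50 (SE 0.49, adjusted p = 0.00021). Cdh10 was at 2.10 (SE 0.44, adjusted p = 0.00041), Cdh12 at 2.00 (SE 0.61, adjusted p = 0.0097) and Pcdh20 at 1.93 (SE 0.65, adjusted p = 0.018; 0.063 and 0.051 without M5 replicate 1 and M9 replicate 3). Pcdhac2 was at 1.86 (SE 0.50, adjusted p = 0.0038), Pcdhgc3 at 1.18 (SE 0.31, adjusted p = 0.003), Cdh24 at 0.93 (SE 0.21, adjusted p = 0.00079) and Pcdh1 at 0.77 (SE 0.26, adjusted p = 0.022; 0.079 and 0.074 without R5 replicate 1 and M9 replicate 1). The negative ones were Cdh23 at -1.83 (SE 0.44, adjusted p = 0.0016) and Pcdhga12 at -1.04 (SE 0.35, adjusted p = 0.017; 0.067 without R5 replicate 3). Pcdh19 passed the threshold in opposite directions, -1.62 on day 5 and 1.49 on day 9, and Pcdh8 and Pcdhga12 kept 1 direction with a smaller effect on day 9. The share of all genes with such a difference was 38.9%, against 20.3% of the members.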

How the results depend on the processing

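Of 266 called member values, 115 kept their call and direction in every alternative, and 542 of 4144 alternative values lost the call with the same direction. No called value changed sign. Values that were not called did so in places, such as Cdh3 in B5 against R5, which turned to -0.01 without R5 replicate 1 and to -0.17 without B5 replicate 1, the lowest of its values with 1 library left out, of which 0.61 was the highest. Calls ended in 96 values with the compared libraries alone and a replicate block, 62 with the compared libraries alone, 11 with the replicate block over all libraries, 18 with quantile normalization, 3 with either pseudocount, 2 with array weights, 10 in the authors' deposited test and 121 on leaving out some library. For each shift below the cause was not tested.

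Array weights moved the counts of called members to 38 (R4 against D3), 26 (M4 against R4), 22 (B6hr against R6hr), 15 (B5 against R5), 44 (M5 against R5), 19 (M5 against B5), 30 (B7 against R7), 34 (M7 against R7), 28 (B9 against R9), 32 (M9 against R9), 32 (R9 against R5), 28 (B9 against B5), 29 (M9 against M5) and 35 (the difference of effects), where the reported counts were 13, 10, 0, 4, 19, 9, 16, 21, 8, 21, 15, 17, 13 and 14. With the compared libraries alone the counts were 17 for D3 against D0 (34 reported), 8 for R4 against D3, 2 for M4 against R4, 5 for B6hr against R6hr and 0 by limma for B5 against R5 (11 at an unadjusted p under 0.05).

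The replicate block over all 45 libraries gave 34, 13, 9, 0, 4, 19, 9, 15, 21, 25, 6, 20, 23, 15, 16, 13 and 14 called members in the order of comparisons from D3 against D0 to the difference of effects. With the compared libraries alone and the replicate block the counts were 15 (D3 against D0), 3 (R4 against D3) and 3 (M4 against R4). For B6hr against R6hr, where the numbers were taken to pair the libraries, the count was 13. It was 0 by limma for B5 against R5 (8 at an unadjusted p under 0.05) and 0 by limma for B7 against R7 (16 at an unadjusted p under 0.05). Other counts were 6 (M7 against R7), 15 (B9 against R9), 5 (R9 against R5) and 21 (M9 against M5). Outside the 6 h groups the numbers did not pass the rule used for pairing.

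Leaving out 1 library gave 8 to 18 called members for R4 against D3, 5 to 12 for M4 against R4, 1 to 4 for B5 against R5, 5 to 11 for M5 against B5, 10 to 14 for B7 against R7, 3 to 6 for B9 against R9, 14 to 23 for M9 against B9, 8 to 19 for R9 against R5 and 11 to 17 for B9 against B5. Each group had 3 libraries, and read depth is unknown.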
